A study of Mus musculus with 6 samples.

Results

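Keratin-associated proteins are small proteins of the hair shaft. They fill the space between the keratin filaments of the cortex and cuticle and bind them, mostly through disulfide bonds, into the hard fibre of hair. Their genes sit side by side in clusters and are switched on late, as cells of a growing follicle harden into hair. The families are numbered, and are grouped by composition into high-sulfur and ultra-high-sulfur proteins, rich in cysteine, and high glycine-tyrosine proteins. In mice the homeobox factor Hoxc13 and the forkhead factor Foxn1 are known regulators of hair keratin and keratin-associated protein genes.

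All 50 rows of the expression table whose symbol starts with Krtap were taken, of 18824 rows in all, and no row was dropped for a low value. The table holds RNA-seq levels of 6 skin libraries from C57BL/6j mice. All 6 belong to the MC903 model: MC903, an analogue of vitamin D, is put on skin and inflames it much as atopic dermatitis does. The 3 libraries titled CCR3 (replicates 1, 2 and 4) came from treated skin and the 3 titled VEH (replicates 1, 2 and 4) from skin given vehicle. The series names the compound as SB328437, an antagonist of the receptor CCR3, while the treatment label of the CCR3 libraries names SC144, an inhibitor of gp130, so the groups are called CCR3 and VEH here. The sources used here give no age, dose, time or skin site, and skin without MC903 was not analysed here. Nothing in the labels says that replicates are separate mice, so p-values measure the spread between these samples, which may be technical.

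Values are FPKM, reads scaled to transcript length and library size. The FPKM sum per library ran from 517764 to 553305, between 12919 and 13054 genes reached 1 FPKM, and the number of reads behind a value is unknown. CCR3 replicate 2 stood apart for most of the genes described below, so results are given with and without it. It also had the highest summed level of 8 skeletal muscle markers (239 FPKM, against 138 to 154 in the other CCR3 libraries and 83.2 to 194 in VEH) and of 8 markers of the epidermis between follicles (9577 FPKM, against 6090 to 7442 and 6307 to 7255), and the lowest of 8 adipocyte markers (352 FPKM, against 447 to 698 and 649 to 776). The part of these differences in the results was not tested.

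The Krtap genes were expressed at a low level, and more strongly in each CCR3 library than in any VEH library. Summed over the 50 rows, their FPKM was 60.69, 189.51 and 42.03 in CCR3 replicates 1, 2 and 4 and 25.08, 24.95 and 20.65 in VEH replicates 1, 2 and 4. The groups did not overlap, and the VEH libraries lay close together while the CCR3 libraries were spread widely. The CCR3 mean was 97.4 ± 80.3 FPKM and the VEH mean 23.6 ± 2.52 FPKM (each ± SD, n = 3), a ratio of 4.13, which was 2.18 without CCR3 replicate 2. The sum made up at most 0.0358% of all FPKM. In whole skin, fewer cells of a type and less RNA per cell cannot be told apart.

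A few genes carried this sum. With a mean over the 6 libraries of at least 1 FPKM there were 6 rows, Krtap3-1, Krtap3-3, Krtap13, Krtap3-2, Krtap21-1 and Krtap6-2, and they held 85.8% to 95.2% of the Krtap sum in each library. The 3 genes of family KAP3 alone held 66.9% to 78.6%. Of the other 44 rows, the highest mean was 0.627 FPKM (Krtap13-1) and the highest single value 2.19 FPKM, in the same gene in CCR3 replicate 2. Between 15 and 33 of the 50 rows were above 0 in a library, 8 were above 0 in all 6, and Krtap10-10, Krtap4-2 and Krtap9-1 were listed at 0 throughout.

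**Figure D1:**
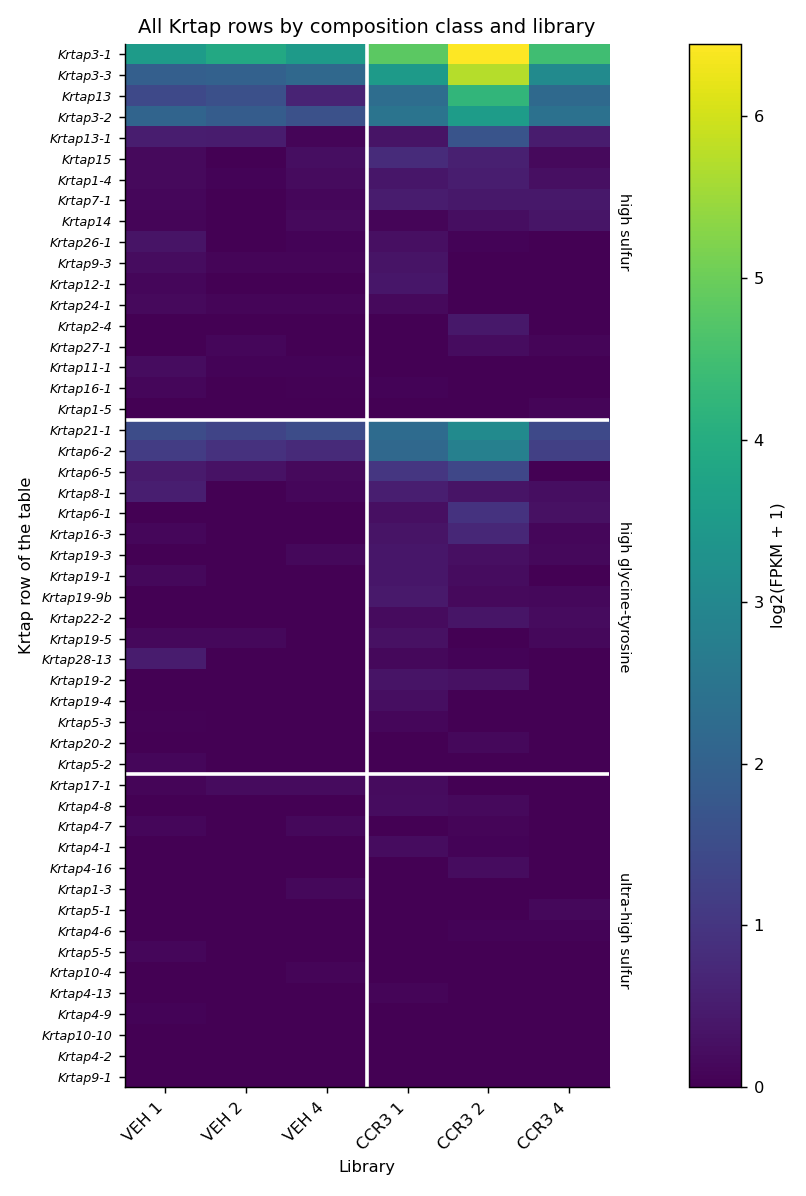
Level of each of the 50 Krtap rows (vertical axis) in each library (horizontal axis), as log2(FPKM + 1) by colour, grouped by composition class. The bright cells are the 6 rows with a mean of at least 1 FPKM, brightest in CCR3 replicate 2, and the 15 ultra-high-sulfur rows stay dark in all libraries.

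The most abundant member was Krtap3-1 (Entrez gene 69473), a high-sulfur protein gene. It stood at 27.29, 86.18 and 20.96 FPKM in CCR3 replicates 1, 2 and 4 and at 10.71, 13.71 and 10.43 FPKM in VEH replicates 1, 2 and 4. Each CCR3 value was above each VEH value, and CCR3 replicate 2 was far above the other 5 libraries. The means were 44.8 ± 36 and 11.6 ± 1.82 FPKM (SD, n = 3 each), and the log2 fold change, on the scale of log2(FPKM + 1), was 1.59 ± 0.517 (SE). By limma fitted on all rows it did not pass an adjusted p of 0.05 (adjusted p = 0.201).

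Krtap3-3 (66380), of the same family, was 10.42, 51.92 and 7.55 FPKM in CCR3 and 2.88, 2.99 and 3.55 FPKM in VEH, in the order of replicates 1, 2 and 4. The VEH values were nearly equal, and the lowest CCR3 value was above all of them. This was the largest ratio of group means among the 6 genes, 7.42, or 2.86 without CCR3 replicate 2 (log2 fold change 2.07 ± 0.68 SE, limma adjusted p = 0.205). Krtap3-2 (66708) was lower and moved less, with 4.61, 10.79 and 4.31 FPKM in CCR3 and 3.19, 2.68 and 2.02 FPKM in VEH, again without overlap (log2 fold change 0.97 ± 0.332 SE, limma adjusted p = 0.214). The 3 genes resemble each other in sequence. Of the stretches of 50 bases, the read length, in the transcript of Krtap3-3, 41.3% also occurred in another gene's transcript, all in the KAP3 family, against 28.9% for Krtap3-2 and 8.83% for Krtap3-1. How their reads were divided is therefore uncertain. Their sum was 42.32, 148.89 and 32.82 FPKM in CCR3 and 16.78, 19.38 and 16 FPKM in VEH.

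Krtap13 (16699), a high-sulfur gene of another family, was 3.96, 18.03 and 3.59 FPKM in CCR3 and 1.69, 2 and 0.56 FPKM in VEH. The groups did not overlap, and VEH replicate 4 was lowest. Its log2 fold change of 1.70 ± 0.605 (SE) missed the threshold (limma adjusted p = 0.226). Reads could be shared here too, since 24.9% of its stretches of 50 bases occur in its neighbours 2310034C09Rik, 2310057N15Rik or Gm5965.

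Among high glycine-tyrosine genes, Krtap21-1 (170656) was 3.75, 7.42 and 1.69 FPKM in CCR3 and 1.82, 1.48 and 1.83 FPKM in VEH. It was the 1 gene of the 6 whose groups overlapped, because CCR3 replicate 4 lay within the VEH values (log2 fold change 0.81 ± 0.401 SE, limma adjusted p = 0.335). Krtap6-2 (16701) was 3.51, 6.02 and 1.33 FPKM in CCR3 and 1.22, 0.90 and 0.71 FPKM in VEH. Its lowest CCR3 value stood just above its highest VEH value (log2 fold change 1.12 ± 0.397 SE, limma adjusted p = 0.225).

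**Figure D2:**
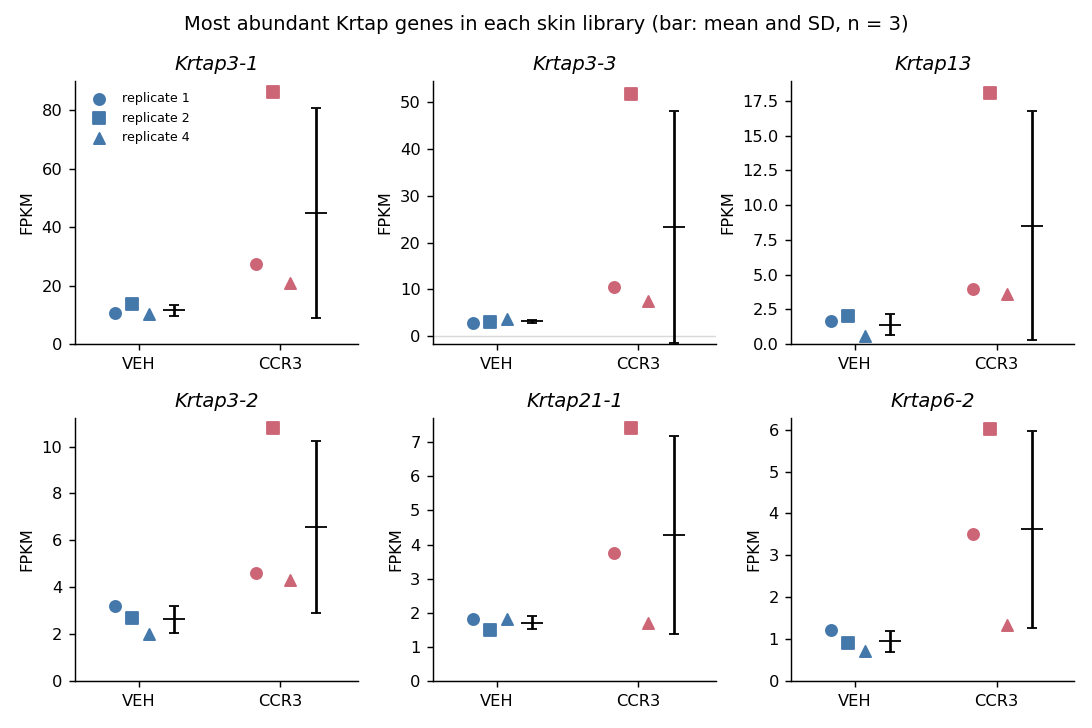
FPKM of the 6 Krtap genes with a mean of at least 1 FPKM in each library, on a separate scale per gene. Marker shape gives the replicate number, and the bar is the mean and SD of 3 libraries. CCR3 replicate 2 is the highest point in each panel, and in Krtap21-1 CCR3 replicate 4 (1.69 FPKM) falls among the VEH libraries.

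Of the 6 genes, 5 were higher in CCR3 without overlap, where 10.4% of all 13008 rows with such a mean were higher and 18.2% lower without overlap. Their median log2 fold change was 1.36, against -0.04 over all those rows, and 0.87 without CCR3 replicate 2. Over all 50 Krtap rows the median was 0.08, against -0.02 over the whole table, and over Krtap rows with a mean of at least 0.1 FPKM it was 0.48. Krtap6-2, with a VEH mean of 0.943 FPKM, is among the 6 only through its CCR3 values, so the count and median of the 6 describe them and support nothing. Ranked by log2 fold change among these rows, Krtap3-3 was at place 4, Krtap13 at 8, Krtap3-1 at 12, Krtap6-2 at 26, Krtap3-2 at 36 and Krtap21-1 at 54 from the top. None of the 6 passed by limma on all rows, where 0.489% of 18824 rows did. An unadjusted p under 0.05 was reached by 5 of them, all higher, against 6.47% of all rows higher and 12.2% lower. With rows of at least 1 FPKM in 3 libraries, a filter that all 6 met, none passed either (adjusted p from 0.0873 for Krtap3-1 to 0.207 for Krtap21-1), where 3.74% of 13063 rows did (1.36% higher). Krtap6-2 met this filter through its CCR3 values. In that fit all 6 had an unadjusted p under 0.05, but the share of all filtered rows that did so is not given here, so the count supports nothing. With rows of a mean of at least 1 FPKM, where 1.37% were called higher, none of the 6 passed.

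CCR3 replicate 2 was far above the other CCR3 libraries in Krtap3-1 and Krtap3-3. Whether these genes passed depended on it and on the filter. In Krtap6-2 (3.51 against 1.33 FPKM) and Krtap21-1 (3.75 against 1.69 FPKM) CCR3 replicates 1 and 4 differed as well. With the filter and without CCR3 replicate 2, a combination chosen after seeing the data, Krtap3-1 (adjusted p = 0.0126) and Krtap3-3 (adjusted p = 0.00449) passed by limma, where 2.46% of rows did (1.13% higher). In this fit the log2 fold changes were smaller, 0.99 for Krtap3-1 and 1.26 for Krtap3-3. Without a filter and without CCR3 replicate 2 no row of the table passed. Relative to the VEH mean, Krtap3-3 was 3.32, 16.5 and 2.4 times as high in CCR3 replicates 1, 2 and 4, and Krtap3-1 was 2.35, 7.42 and 1.8 times as high.

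Krtap7-1 (71363) was the 1 member that passed in the fit on all rows, and it rose from a level near 0. Its FPKM was 0.41, 0.33 and 0.33 in CCR3 and 0.08, 0.00 and 0.08 in VEH, for replicates 1, 2 and 4. The CCR3 libraries were alike, CCR3 replicate 2 included, and well separated from VEH. The log2 fold change was 0.37 ± 0.0418 (SE, limma adjusted p = 0.0434), and 0.223% of all rows were called higher. Over 11 other settings its adjusted p ran from 0.0201 to 0.184, and 2 of these settings kept the call. With any 1 library left out the call was lost (limma adjusted p from 0.0557 to 0.184). None of its stretches of 50 bases occurs in the transcript of another gene. Equal values recur (0.33 and 0.33, 0.08 and 0.08), so values of this size may rest on a few reads, whose number is not given.

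Over all 50 rows, 10 were higher in CCR3 without overlap and 1 was lower, against 8.36% and 14.7% of all rows of the table (23% in either direction). Beside 5 of the 6 abundant genes, the higher rows without overlap were Krtap7-1, Krtap1-4, Krtap6-1, Krtap19-9b and Krtap22-2. Krtap6-1, a high glycine-tyrosine gene, was 0.20, 0.92 and 0.22 FPKM in CCR3 and was listed at 0 in all VEH libraries. Krtap19-9b (0.35, 0.12 and 0.11 FPKM) and Krtap22-2 (0.14, 0.29 and 0.14 FPKM) were listed at 0 in VEH too, a pattern seen in 0.0797% of all 18824 rows. Of these rows 13008 had a mean of at least 1 FPKM, so that share is no base rate for rows near 0. Krtap1-4 was 0.31, 0.44 and 0.21 FPKM in CCR3 and 0.12, 0.04 and 0.13 FPKM in VEH. Krtap11-1 went the other way, listed at 0 in all CCR3 libraries and at 0.15, 0.05 and 0.05 FPKM in VEH. Krtap1-4, Krtap6-1, Krtap11-1, Krtap19-9b and Krtap22-2 did not pass by limma, with adjusted p from 0.107 for Krtap22-2 to 0.241 for Krtap6-1. An unadjusted p under 0.05 was reached by 11 rows that were higher and 1 that was lower, against 6.47% and 12.2% of all rows. The 11 are the 10 without overlap and Krtap19-3, at 0.30, 0.20 and 0.10 FPKM in CCR3 and 0.00, 0.00 and 0.10 FPKM in VEH.

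The composition of the encoded proteins was read from their GENCODE coding sequences, which were found for all 50 rows. All 50 transcripts have 1 exon, and the proteins are 58 to 502 residues long. By composition 17 rows were high glycine-tyrosine (at least 35% of residues), 15 ultra-high sulfur (over 30% cysteine) and the other 18 were counted as high sulfur, a class that by this rule also takes proteins with little cysteine. Krtap28-13, Krtap5-2 and Krtap5-3 met both rules and were counted in the first class. Krtap7-1, with 29.9% glycine and tyrosine and 9.2% cysteine, fell in the last.

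High-sulfur rows held most of the RNA, with a summed 49.01, 171.07 and 37.90 FPKM in CCR3 and 20.11, 22.08 and 17.40 FPKM in VEH. High glycine-tyrosine rows summed to 11.18, 18.00 and 3.97 FPKM in CCR3 and 4.69, 2.74 and 2.85 FPKM in VEH, where CCR3 replicate 4 overlapped VEH. The 15 ultra-high-sulfur rows were near 0 in all 6 libraries, with no value above 0.16 FPKM, sums of 0.16 to 0.50 FPKM in CCR3 and 0.13 to 0.40 FPKM in VEH, and no row higher without overlap. No row of that class reached a mean of 1 FPKM, while 4 high-sulfur and 2 high glycine-tyrosine rows did.

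**Figure D3:**
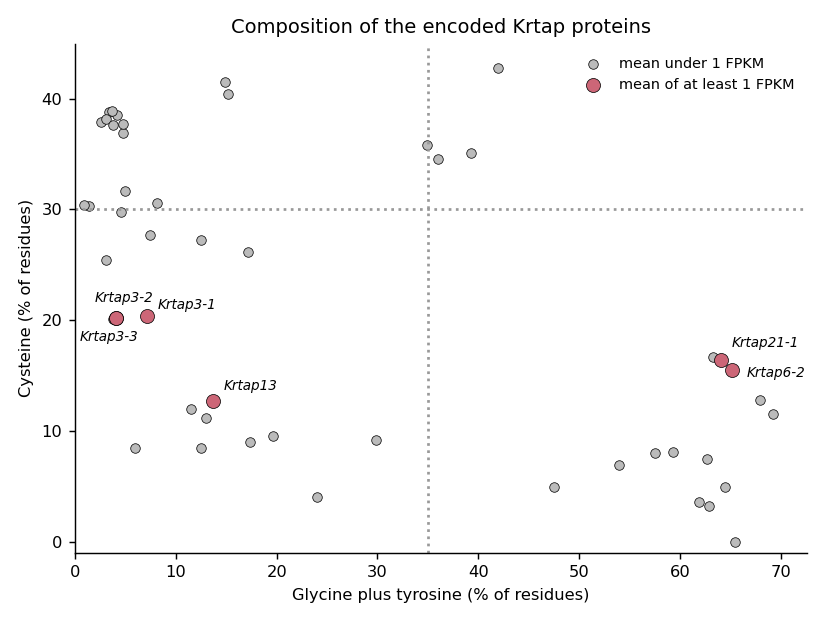
Cysteine against glycine plus tyrosine, in percent of residues, for the 50 encoded proteins, 1 point each, with dotted lines at the class limits of 30% and 35%. The 6 genes with a mean of at least 1 FPKM (larger points) lie in the high-sulfur and high glycine-tyrosine fields, and none lies above 30% cysteine.

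The 150 bases before the annotated start of 4 abundant members are shown as examples from both chromosomes that hold the abundant genes. In all 4 the order of the CCR3 libraries was the same, while that of the VEH libraries was not. They are from RefSeq on build GRCm38.p6, all on the minus strand, at chr11:99566631-99566780 (Krtap3-1), chr11:99550864-99551013 (Krtap3-3), chr16:88751629-88751778 (Krtap13) and chr16:89420112-89420261 (Krtap6-2). Each reads 5′ to 3′ towards the gene, with the letters TATAAA, the core of a TATA box, in capitals.
Krtap3-1: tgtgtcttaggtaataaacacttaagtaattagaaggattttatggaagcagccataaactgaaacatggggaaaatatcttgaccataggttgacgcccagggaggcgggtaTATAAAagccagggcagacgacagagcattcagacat
Krtap3-3: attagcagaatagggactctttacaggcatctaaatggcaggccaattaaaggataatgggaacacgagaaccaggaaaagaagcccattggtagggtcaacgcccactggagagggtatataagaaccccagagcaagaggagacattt
Krtap13: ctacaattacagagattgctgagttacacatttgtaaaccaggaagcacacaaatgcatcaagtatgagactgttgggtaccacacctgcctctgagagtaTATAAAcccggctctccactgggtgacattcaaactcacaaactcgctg
Krtap6-2: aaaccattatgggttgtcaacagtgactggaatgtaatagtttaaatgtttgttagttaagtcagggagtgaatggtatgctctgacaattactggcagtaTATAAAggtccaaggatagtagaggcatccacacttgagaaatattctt
TATAAA begins 37 bases before the start of Krtap3-1 and 49 bases before those of Krtap13 and Krtap6-2. Krtap3-3 does not hold these exact letters in this window, but it holds tatataag, a similar run that the exact search did not count. Promoters were found in the RefSeq table for 45 of the 50 rows. On either strand, 36 of the 45 windows of 150 bases held TATAAA (80%), against 7.57% of 32851 windows of all promoters. CTTTGAA, a match to the motif of the factor Lef1, was in 1 window (2.22% against 2.4% of all), and TTTATNG, letters of a homeobox site, in 3 (6.67% against 5.81%), Krtap3-1 among them. A match is a description of letters, not evidence of binding.

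Position in the genome was compared with level. In the RefSeq gene order, Krtap13 lies in a run of 37 coding genes on chromosome 16, of which 28 had a row in the table, 18 of them Krtap rows. The other 10 rows, named by clone or model numbers, included 6 with a mean of at least 1 FPKM. These neighbours were examined by position, after their values had been seen. 2310079G19Rik was 12.86, 54.90 and 9.80 FPKM in CCR3 and 6.63, 6.43 and 2.46 FPKM in VEH, a higher level than any Krtap row of that chromosome. 2310034C09Rik, directly beside Krtap13, was 5.50, 25.02 and 4.17 FPKM in CCR3 and 2.34, 3.26 and 1.56 FPKM in VEH. Of the 10 rows 6 were higher in CCR3 without overlap and none was lower, against 8.36% and 14.7% of all rows. Reads may be shared among these rows and Krtap rows, so they may not count as separate. Besides the stretches of Krtap13 named above, 28.3% of those of Krtap6-1 occur in 1110025L11Rik, Gm10228, Gm10229 or Krtap6-5. The shared part of the 10 rows themselves was not computed. 1110025L11Rik (VEH mean 0.157 FPKM) and 2310061N02Rik (VEH mean 0.827 FPKM) reached a mean of 1 FPKM only through CCR3.

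Summed over the 10 rows, the level was 30.89, 133.73 and 20.51 FPKM in CCR3 and 13.49, 14.17 and 6.69 FPKM in VEH, so that CCR3 replicate 2 was again far above the rest. None of them passed by limma (adjusted p from 0.237 to 0.366 for the 6). An unadjusted p under 0.05 was reached by 3, all higher, against 6.47% of all rows higher and 12.2% lower. By composition, 5 of the 6 resemble Krtap13, with 8.65% to 13.3% cysteine, and 1110025L11Rik has 69.2% glycine and tyrosine. The 25 other rows without a Krtap symbol that lie in Krtap clusters of chromosomes 7, 10 and 11 had no value above 0.40 FPKM, and none differed without overlap in either direction.

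**Figure D4:**
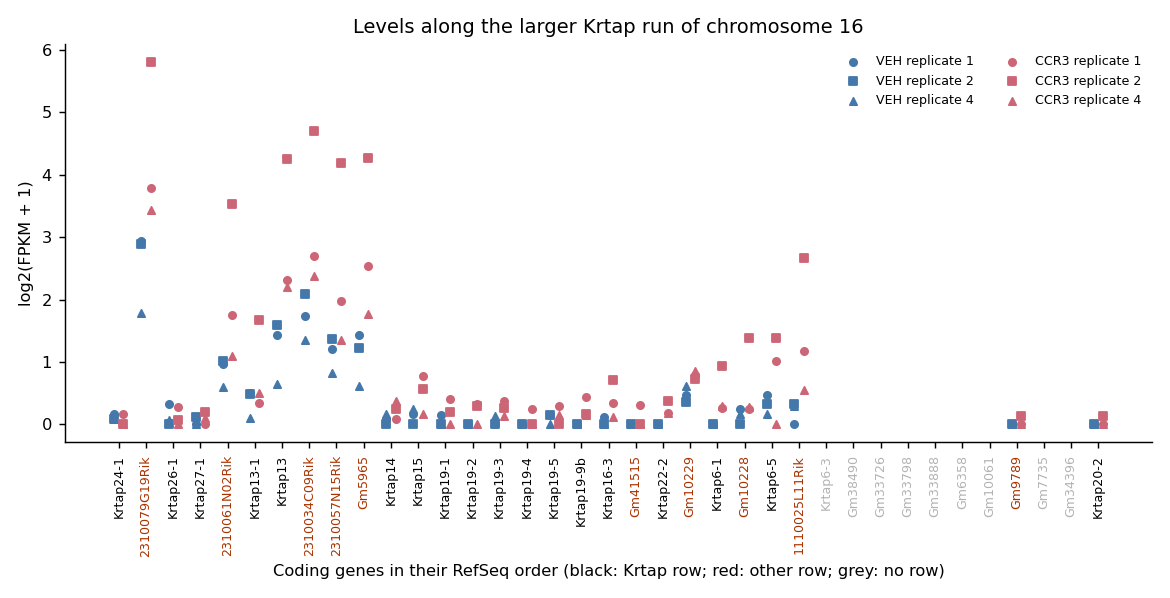
Level of each coding gene along the larger Krtap run of chromosome 16, as log2(FPKM + 1), with genes in RefSeq order on the horizontal axis and 1 point per library. The 7 genes with a mean of at least 1 FPKM, Krtap13 among them, stand out between genes near 0, and CCR3 replicate 2 is the top point of each.

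Hair keratins, the filaments that these proteins bind, were compared next. Of 15 listed genes 14 had a row, and Krt85 was not analysed here. None of the 14 passed, 4 were higher and 1 lower in CCR3 without overlap, against 8.36% and 14.7% of all rows, and their median log2 fold change was 0.02. Krt84 and Krt36, hair keratins also known from tongue papillae, were abundant and had the same order of libraries as the Krtap sum in CCR3. Krt84 was 70.03, 349.59 and 53.67 FPKM in CCR3 and 26.84, 25.64 and 19.11 FPKM in VEH. Krt36 was 75.57, 375.92 and 55.68 FPKM in CCR3 and 28.94, 35.21 and 16.37 FPKM in VEH. Neither overlapped between groups and neither passed by limma on all rows (adjusted p = 0.202 and 0.222), while Krt84 passed with the filter and without CCR3 replicate 2 (adjusted p = 0.00614).

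The other 12 hair keratins were near 0, with no value above 0.91 FPKM. They include Krt31, Krt33a, Krt33b, Krt34, Krt35, Krt81, Krt83 and Krt86 of the shaft cortex and cuticle. Krt34 was higher in CCR3 without overlap (0.26, 0.91 and 0.29 FPKM against 0.17, 0.03 and 0.10 FPKM; limma adjusted p = 0.272), with CCR3 replicate 2 highest, and so was Krt39 (0.24, 0.32 and 0.21 FPKM against 0.15, 0.18 and 0.18 FPKM; limma adjusted p = 0.229). Krt33b was lower without overlap (0.06, 0.02 and 0.07 FPKM against 0.19, 0.09 and 0.14 FPKM; limma adjusted p = 0.198). Shh, a signal of the growing hair bulb, had no value above 0.02 FPKM. Against the label of hair shaft genes, the ultra-high-sulfur Krtap genes and 12 of 14 hair keratins were thus at or near 0, while 6 Krtap genes, Krt36, Krt84 and 8 of 12 other hair shaft proteins had a mean of at least 1 FPKM.

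**Figure D5:**
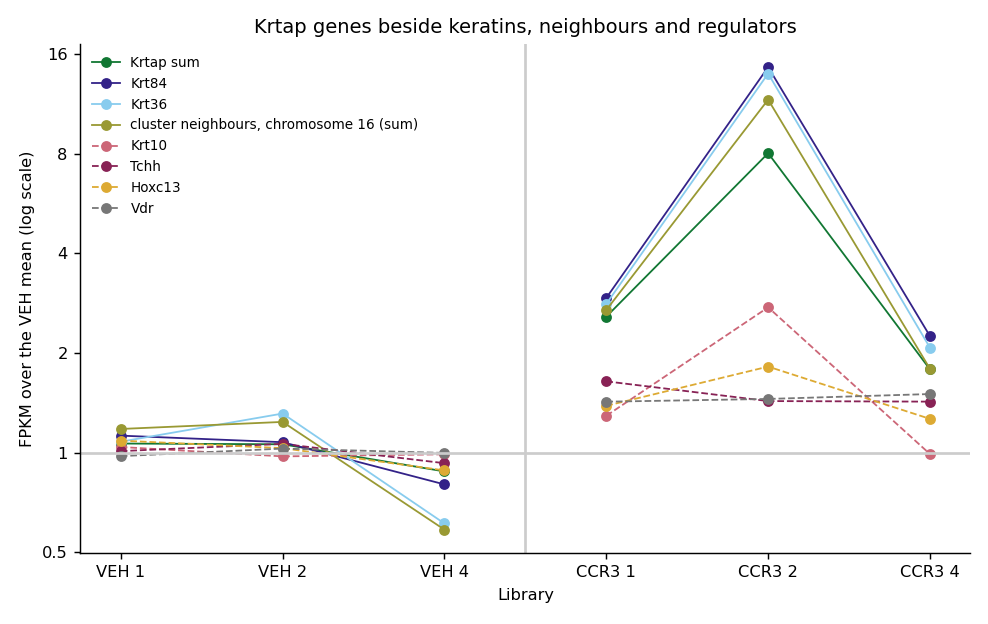
Level in each library relative to the mean of the VEH libraries, on a log axis, for the Krtap sum, Krt84, Krt36, the sum of the 10 neighbouring rows on chromosome 16 and 4 other genes (dashed). Lines join points of a group for reading and imply no order; in CCR3 replicate 2 the solid lines reach 8.04 to 14.6, and the dashed ones 1.43 to 2.75.

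Genes of the inner root sheath, the tube that moulds the shaft, were examined next. Tchh, the gene of trichohyalin, was 281.72, 245.55 and 244.60 FPKM in CCR3 and 173.27, 182.27 and 159.30 FPKM in VEH. Its CCR3 libraries were alike, CCR3 replicate 2 included, and it did not pass without a filter (limma adjusted p = 0.0561) but did with it (adjusted p = 0.0149). Tchhl1, a related gene, was 12.41, 10.11 and 7.31 FPKM against 6.66, 7.08 and 5.20 FPKM (limma adjusted p = 0.222). Krt72 was under 0.2 FPKM in all libraries. The other sheath keratins were low too and overlapped between groups. Krt25 had no value above 2.05 FPKM, Krt71 none above 1.66 FPKM and Krt27 none above 0.86 FPKM, and Krt26, Krt28 and Krt73 were lower still. None of 9 sheath genes passed, with 2 higher and 1 lower without overlap, against 8.36% and 14.7% of all rows, and a median log2 fold change of 0.10. Among 12 other shaft proteins none passed, with none higher and 1 lower without overlap and a median of 0.11. By smallest p these were Gprc5d (up to 0.15 FPKM), Selenbp1 (15.58, 15.32 and 17.10 against 21.10, 16.74 and 22.25 FPKM) and Hephl1 (7.06, 9.08 and 9.67 against 6.29, 7.51 and 4.44 FPKM).

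Of 25 regulators of the hair matrix and shaft, 1 passed, against 0.489% of all rows, and 10 were higher and 2 lower without overlap, against 8.36% and 14.7% (median log2 fold change 0.15). Vdr, the vitamin D receptor gene, rose from 12.75, 13.44 and 13.04 FPKM in VEH to 18.63, 18.99 and 19.65 FPKM in CCR3 (log2 fold change 0.51 ± 0.0434 SE, limma adjusted p = 0.0287). That call was lost without any 1 library other than CCR3 replicate 4 (adjusted p from 0.103 to 0.164). Hoxc13 was 7.48, 9.83 and 6.83 FPKM in CCR3 and 5.87, 5.57 and 4.77 FPKM in VEH. It was highest in CCR3 replicate 2, as the Krtap sum was, and the groups did not overlap, yet its log2 fold change of 0.49 ± 0.141 (SE) missed the threshold (limma adjusted p = 0.171).

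Foxn1 was 2.12, 3.21 and 2.04 FPKM in CCR3 and 1.55, 1.74 and 1.64 FPKM in VEH, with the same order of CCR3 libraries (limma adjusted p = 0.237). Msx2, a homeobox gene of the hair matrix, was 2.22, 2.77 and 2.88 FPKM against 1.64, 1.98 and 1.49 FPKM (limma adjusted p = 0.141). These 2 genes did not overlap between groups. Lef1, the Wnt effector of the hair matrix, was low and overlapped, at 0.59, 0.89 and 1.22 FPKM in CCR3 and 1.20, 1.22 and 1.03 FPKM in VEH.

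Of 8 genes listed as hair cycle brakes none passed, against 0.489% of all rows, so no call in so short a list says little. None was without overlap (median -0.06), against 8.36% of all rows higher and 14.7% lower. The list mixes roles, since it holds both Bmp6, a bone morphogenetic protein gene, and Nog, the gene of an inhibitor of such proteins. Its median is therefore no measure of braking. Nfatc1, a factor of resting hair stem cells, was 11.53, 12.57 and 14.96 FPKM in CCR3 and 16.26, 15.59 and 14.93 FPKM in VEH. Nog and Sostdc1, inhibitors of bone morphogenetic proteins, had limma adjusted p of 0.339 and 0.391. Of 10 proliferation genes none passed and none was without overlap (median -0.01), against the same shares of all rows. By smallest p the first were Cdk1, Birc5 and Plk1 (limma adjusted p = 0.369, 0.454 and 0.625). Summed, the proliferation genes ran from 133 to 142 FPKM in CCR3 and from 125 to 164 FPKM in VEH.

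Markers of other cell types were summed. Summed markers of the outer root sheath and bulge ran from 3675 to 4129 FPKM in CCR3 and from 3260 to 3950 FPKM in VEH, those of the dermal papilla from 70.8 to 90.4 and from 85.4 to 90 FPKM, and those of melanocytes from 49.8 to 57.4 and from 54 to 68.4 FPKM. All 3 ranges overlapped between groups, and none of their 25 genes passed by limma, where 0.489% of all rows did. Krt6a (2379.89 to 3179.50 FPKM) and Krt17 (640.69 to 804.67 FPKM) made up most of the outer root sheath and bulge sum, so it says little about the other markers in it. Without overlap, Fgf10 was higher and Fgf7 and Rspo3 lower among 9 dermal papilla markers, and Dct was lower among 8 melanocyte markers. Of all rows, 8.36% were higher and 14.7% lower without overlap. Fgf7, a growth factor gene, was 19.92, 14.78 and 19.00 FPKM in CCR3 and 24.31, 24.09 and 26.59 FPKM in VEH (limma adjusted p = 0.137). Krt10, a keratin of the upper epidermis, was 835.86, 1778.89 and 640.12 FPKM in CCR3 and 672.51, 629.96 and 639.05 FPKM in VEH. It too was highest in CCR3 replicate 2, but CCR3 replicate 4 lay within VEH. Krt5, Krt14, Krt1, Lor, Flg and Ivl of the same list were also highest in CCR3 replicate 2, while Krt77 was lowest there (1.26 FPKM). Of the 8 markers in that list none passed and none was without overlap (median log2 fold change 0.15). Of 8 adipocyte markers 5 were lower in CCR3 without overlap (median log2 fold change -0.63), against 18.2% of rows with a mean of at least 1 FPKM, and none passed. Leukocyte and fibroblast markers overlapped in sum, with medians of -0.27 and -0.09. The part of these cell types in the Krtap levels was not tested.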

How the data were processed

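RNA from mouse skin was selected with oligo(dT) beads, primed with random hexamers and sequenced from 1 end over 50 bases, per the labels' protocols. The aligner was HISAT, per the submitters' processing notes. Version, build, annotation, counter, strand and filters were not given in the sources used here. The authors deposited 1 table of FPKM with 2 decimals, so depth is unknown and only the number of libraries limits precision as far as can be stated. FPKM is relative, and short reads of near-identical genes can be divided wrongly.

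Members and lists were chosen with earlier results of these data known. Libraries were grouped by title. Values were taken as log2(FPKM + 1), all 18824 rows were fitted by limma (3.58.1, under R 4.3.3) using a variance trend, and 2-sided p-values were adjusted by Benjamini-Hochberg over all rows at 0.05. No filter was used, since a filter on low values admits genes through the group in which they are higher. Sums, ratios and overlap have no test. Values per library are given for Krtap rows with a mean of at least 1 FPKM or past the threshold. In 6 companion lists the genes past the threshold are named, otherwise the 3 with the smallest p, and Hoxc13, Foxn1, Msx2 and Lef1; other names were chosen after their values were seen. A further 8 lists marked cell types. Composition and shared stretches came from GENCODE M21 transcripts, promoters and gene order from RefSeq GRCm38.p6. Only the limma fit was tested on simulated data, with noise drawn separately for each value and no library set apart. Python 3.11.15, Biopython 1.88 and matplotlib 3.10.9 were used. Alternatives are given in the closing section.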

Additional observations from a re-analysis of the deposited data

How the results depend on the processing

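The Krtap sum was higher in CCR3 under all settings tried. Since the groups did not overlap in this sum, leaving out a library could not reverse its direction, so these settings describe its size only. The CCR3 to VEH ratio was 4.21 to 4.4 under other scalings, with abundant rows or without Krtap3-1. It ran from 2.18 to 5.31 with each library left out in turn. The median log2 fold change of the 6 abundant genes moved from 1.36 to 0.08 over all rows and to 0.48 over rows with a mean of at least 0.1 FPKM, and ran from 0.87 to 1.76 with a library left out. Rows without overlap numbered 11, or 5 among rows with a mean of at least 1 FPKM, 12 with centred libraries and 13 with libraries scaled to the same FPKM sum. The count of Krtap calls, 1 in the main fit, was 0 with either filter and with a pseudocount of 0.1. It was also 0 with libraries scaled to the same FPKM sum and with the replicate block. With a library left out it ran from 0 to 2. The 2 without CCR3 replicate 4 were Krtap19-2 and Krtap4-8, and not Krtap7-1. Both were near 0. Krtap19-2 was 0.26 and 0.22 FPKM in CCR3 replicates 1 and 2, Krtap4-8 was 0.16 and 0.12 FPKM, and both were listed at 0 in VEH. Of their stretches of 50 bases, 14.1% and 33.4% occur in transcripts of other genes. The 2 with rows of at least 1 FPKM in 3 libraries and without CCR3 replicate 2 were Krtap3-1 and Krtap3-3. The count of calls in the companion lists, 1 in the main fit, was 3 with either filter and with centred libraries, 2 without a variance trend, 0 with the replicate block, ran from 0 to 1 with a library left out, and was 4 with that filter and without CCR3 replicate 2. The causes were not tested. Shares of all rows called are given above only for the main fit, the filters and the fits without CCR3 replicate 2. Same-numbered libraries correlated at -0.0628, 0.0822 and -0.0334 in their deviations from the group means, and not every library correlated best with its own number, so the numbers were not taken as pairs. Of 503 other values of 38 named genes, 481 kept their side of the threshold, 15 lost it, 7 gained it and none changed sign. Of these genes only Krtap7-1 and Vdr passed in the main fit, so most values kept their side by not passing. Krtap7-1 lost its call in 9 settings and Vdr in 6. With all libraries, the filters, the variance trend and the replicate block leave the log2 fold change as it is, so no sign could change there. The reads behind a value are unknown, and 44 of the 50 Krtap rows have a mean under 1 FPKM.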
